A study of Mus musculus with 15 samples.

Results

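Sites of open chromatin that lay away from gene ends and carried an ATAC-seq peak in mTOR KO, mTOR KI and WT control haematopoietic stem cells (HSC) numbered 4770. They were chosen by peak presence: the 3 peak lists, 1 per genotype, were joined wherever peaks overlapped or touched, which gave 32764 merged regions on chromosomes 1 to 19, X and Y. A region was kept when all 3 lists had a peak in it and when it lay more than 1 kb from both annotated ends of every protein-coding gene (RefSeq, GRCm38.p6, the assembly behind mm10). The 4770 regions are called common distal regions here. They made up 22.2% of the 21465 merged distal regions. The other 16695 distal regions had a peak in 1 or 2 lists, and a further 7512 regions were shared by all 3 lists but lay at a gene end. Because the choice used peaks in every list, presence in the 3 genotypes is part of the definition and is not a result.

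The cells were HSC sorted from adult mice that had received poly(I:C). KO mice were Mx1-Cre+/-;mTORflox/flox, KI mice were Mx1-Cre+/-;mTORflox/knockin, and WT controls were Mx1-Cre-/-;mTORflox/flox. All 3 groups thus carried a floxed Mtor allele and received poly(I:C), and Cre was present in KO and KI but not in WT. The Mx1 promoter answers to interferon, which poly(I:C) induces, and it is active in many cell types and not in HSC alone. The labels do not describe the change in the knockin allele. There was 1 ATAC-seq library per genotype, made with 50000 cells and a transposition of 30 min at 37 °C. The KO and WT libraries carry a label of re-analysis and the KI library does not, so the KI allele and any batch effect cannot be told apart. The 12 RNA-seq samples of the series were not analysed here. The lists held 19189 peaks over 11.5 Mb in KO, 28391 peaks over 16.5 Mb in KI and 17316 peaks over 11.6 Mb in WT, at a read depth that is unknown. At the annotated start of Mtor, KO had 0 peaks, KI had 1 and WT had 1. Replicates are lacking, so no error and no test between genotypes can be given, and every difference here is one between libraries.

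Distal open chromatin holds enhancers, silencers, insulators and promoters of unannotated or alternative transcripts. Enhancers bind transcription factors and act on promoters that may lie far away on the same chromosome, often skipping the nearest gene. In blood stem cells, a group of factors that includes Tal1, Lyl1, Lmo2, Gata2, Runx1, Erg and Fli1 binds many distal elements together, and several of these genes are themselves controlled by distal enhancers. ATAC-seq shows that DNA is accessible and does not by itself tell these kinds of element apart.

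Of the 4770 regions, 629 (13.2%, Wilson 95% interval 12.3 to 14.2) contained an annotated start of a protein-coding transcript. Such starts are internal or alternative ones, since regions within 1 kb of a gene's outer ends had been left out. A further 244 (5.12%, 4.53 to 5.78) contained a start of a long non-coding RNA (lncRNA), and 3897 (81.7%) contained no start in the RefSeq promoter table. Among the distal regions of 1 or 2 lists the shares were 2.23% (2.02 to 2.47) and 1.48% (1.31 to 1.67), so starts were more frequent among the common regions by more than the counting error. Regions with a start also scored higher, as given further on, and the part of score in this difference was not tested. The intervals cover counting error only, and regions are not replicates. The label distal therefore holds with regard to the outer ends of genes, and a minority of the regions were annotated starts all the same.

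The promoter sequences of those starts, 250 bases before to 50 bases after each start, were richer in CpG dinucleotides than most. The 1087 starts inside common distal regions had a median of 20 CpG per 300 bases and a median GC content of 61.3%. The 739 protein-coding starts among them had a median of 22 CpG, and the 347 lncRNA starts 14. Starts inside common gene-end regions had 24, starts inside distal regions of 1 or 2 lists had 11, and starts with no region had 4. The following starts are shown because they belong to genes of the stem cell, mTOR or lncRNA groups described further on, with CG in capitals.
Cd47, chr16:49855404-49855703, plus strand: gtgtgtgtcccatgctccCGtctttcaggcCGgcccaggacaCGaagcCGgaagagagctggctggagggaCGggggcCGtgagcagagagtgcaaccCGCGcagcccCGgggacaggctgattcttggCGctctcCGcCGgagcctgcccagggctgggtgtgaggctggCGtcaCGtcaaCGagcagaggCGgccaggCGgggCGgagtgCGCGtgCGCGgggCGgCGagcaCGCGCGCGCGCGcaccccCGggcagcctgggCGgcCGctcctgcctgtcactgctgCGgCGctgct
Abcg2, internal start, chr6:58640296-58640595, plus strand: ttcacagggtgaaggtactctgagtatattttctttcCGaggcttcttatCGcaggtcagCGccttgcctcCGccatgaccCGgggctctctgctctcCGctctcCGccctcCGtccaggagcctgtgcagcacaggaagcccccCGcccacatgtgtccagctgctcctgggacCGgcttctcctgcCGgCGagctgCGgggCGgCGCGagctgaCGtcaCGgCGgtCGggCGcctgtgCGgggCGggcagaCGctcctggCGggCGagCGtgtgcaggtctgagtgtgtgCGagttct
Abcg2, another internal start, chr6:58596422-58596721, plus strand: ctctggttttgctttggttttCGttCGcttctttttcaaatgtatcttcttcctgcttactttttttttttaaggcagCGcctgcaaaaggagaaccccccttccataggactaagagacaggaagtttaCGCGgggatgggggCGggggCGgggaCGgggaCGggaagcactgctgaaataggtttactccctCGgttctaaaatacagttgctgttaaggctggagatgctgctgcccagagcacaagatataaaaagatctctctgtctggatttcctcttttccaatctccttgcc
Nr4a1, chr15:101266596-101266895, plus strand: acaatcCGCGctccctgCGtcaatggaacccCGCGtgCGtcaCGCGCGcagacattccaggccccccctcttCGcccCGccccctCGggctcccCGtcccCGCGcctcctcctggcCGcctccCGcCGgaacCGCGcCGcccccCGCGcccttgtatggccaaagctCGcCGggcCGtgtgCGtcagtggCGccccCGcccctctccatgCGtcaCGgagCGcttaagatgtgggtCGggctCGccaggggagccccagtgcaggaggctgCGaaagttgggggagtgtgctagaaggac
Sesn1, chr10:41887189-41887488, plus strand: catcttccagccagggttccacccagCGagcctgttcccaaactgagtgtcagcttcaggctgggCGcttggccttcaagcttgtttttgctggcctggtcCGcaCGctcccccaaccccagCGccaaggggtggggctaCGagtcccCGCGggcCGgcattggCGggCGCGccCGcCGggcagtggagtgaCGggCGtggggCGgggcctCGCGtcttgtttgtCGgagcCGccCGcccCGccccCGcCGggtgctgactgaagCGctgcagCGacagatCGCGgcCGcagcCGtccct
Rragb, chrX:153139708-153140007, plus strand: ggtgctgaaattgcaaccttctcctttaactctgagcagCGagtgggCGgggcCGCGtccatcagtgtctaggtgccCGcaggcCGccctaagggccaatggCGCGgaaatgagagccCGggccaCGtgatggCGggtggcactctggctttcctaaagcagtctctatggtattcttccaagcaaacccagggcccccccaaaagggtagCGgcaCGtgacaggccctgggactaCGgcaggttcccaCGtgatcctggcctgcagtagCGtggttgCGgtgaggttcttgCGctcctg
Gm26901, a lncRNA, chr1:7398047-7398346, minus strand: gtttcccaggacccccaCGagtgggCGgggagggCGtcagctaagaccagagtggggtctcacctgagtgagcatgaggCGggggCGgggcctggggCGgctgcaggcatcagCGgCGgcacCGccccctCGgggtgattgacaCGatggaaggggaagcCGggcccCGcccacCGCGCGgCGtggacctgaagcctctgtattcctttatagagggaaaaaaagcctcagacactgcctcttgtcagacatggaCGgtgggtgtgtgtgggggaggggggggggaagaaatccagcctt
Sequences are from RefSeq in build GRCm38.p6, written 5′ to 3′. The Cd47 window held 35 CpG and the Abcg2 window at chr6:58640296-58640595 held 28, against 10 in the other Abcg2 window, which is poorer in GC (48.0%).

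The regions around these starts differed widely in score. The score is the deposited value of each peak, 10 times the negative log10 of a p-value in the form MACS writes, and it was used only within its own list. A percentile of 84.1 means that the best peak of a region scored at or above 84.1% of the peaks in that list. Cd47, the "do not eat me" signal that protects cells from phagocytosis, had its internal start under a region at percentile 84.1 in KO, 88.5 in KI and 82.5 in WT. The CpG-richer Abcg2 start stood at 74.3 in KO, 90.8 in KI and 80.9 in WT, and the CpG-poor one at 12.8 in KO, 51.3 in KI and 45.1 in WT. Abcg2 is the transporter whose dye efflux marks the side population of stem cells. Sesn1, a leucine sensor of the mTORC1 pathway, stood at 83.9 in KO, 85.5 in KI and 79.5 in WT. Rragb, a Rag GTPase that brings mTORC1 to the lysosome, stood at 80.8 in KO, 91.7 in KI and 75.6 in WT. Nr4a1, an orphan nuclear receptor linked to quiescence, stood lower, at 28.5 in KO, 69.3 in KI and 14.1 in WT. The lncRNA Gm26901, the start of which lies far from any protein-coding gene end, stood at 99.6 in KO, 99.5 in KI and 99.7 in WT.

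Short motifs were counted in the same windows on both strands. CCGGAA, the core of many ETS sites, was present in 25.4% of the starts in common distal regions, against 33.6% of those in common gene-end regions and 14.9% of all starts in the table. TATAAA was present in 5.8% against 5.11% and 13.6%. AGATAA or TGATAA, the forms of a GATA site, were present in 9.94% against 7.36% and 18.6%. TGTGGT, a RUNX core, was present in 13.5% against 10.5% and 16.8%. The rest were TGACGTCA, the palindrome bound by CREB, in 2.48% against 3.97% and 1.79%, and the E-box CACGTG in 9.66% against 11.4% and 7.15%. For each motif other than TGACGTCA, the share at starts of common distal regions was nearer to that of the gene-end starts than to that of all starts. Motif shares depend on base content, for which they were not adjusted. Motifs in the distal regions without a start were not counted, because no genome sequence was used here.

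Some common distal regions also lay at microRNA genes. Of 1005 hairpins in the RefSeq table, 30 lay within 2 kb of 23 common distal regions, and 10 of them overlapped such a region. Clustered hairpins shared the same region, so the hairpins are not independent. These counts were not compared with other regions or with the number expected from coverage, so no excess at microRNA genes can be read from them. The mature forms of the hairpins known in blood cells or in the response to hypoxia are shown with the seed, bases 2 to 8, in capitals, and those that share a seed follow each other.
miR-17-5p: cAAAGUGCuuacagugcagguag
miR-20a-5p: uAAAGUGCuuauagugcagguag
miR-18a-5p: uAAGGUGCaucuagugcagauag
miR-19a-3p: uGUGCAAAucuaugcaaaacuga
miR-19b-3p: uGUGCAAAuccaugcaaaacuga
miR-92a-3p: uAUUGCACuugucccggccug
miR-132-3p: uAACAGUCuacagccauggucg
miR-212-3p: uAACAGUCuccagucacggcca
let-7i-5p: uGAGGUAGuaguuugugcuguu
let-7e-5p: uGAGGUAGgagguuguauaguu
miR-142a-5p: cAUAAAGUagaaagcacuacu
miR-142a-3p: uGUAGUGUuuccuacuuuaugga
miR-22-3p: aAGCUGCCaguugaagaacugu
miR-210-3p: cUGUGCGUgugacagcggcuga
miR-148a-3p: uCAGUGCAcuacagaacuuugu
miR-17-5p and miR-20a-5p shared the seed AAAGUGC, miR-19a-3p and miR-19b-3p shared GUGCAAA, miR-132-3p and miR-212-3p shared AACAGUC, and both let-7 forms shared GAGGUAG. The microRNA sequences are those of RefSeq in build GRCm38.p6.

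The Mir17 to Mir92-1 cluster, an oncogenic polycistron of 6 hairpins on chromosome 14 that is needed for B cell development, had a common distal region at chr14:115041694-115043031. The region ended 640 bp upstream of Mir17 and 1396 bp upstream of Mir92-1, and stood at percentile 43.2 in KO, 70.6 in KI and 64.7 in WT. Mir142, which is specific to blood cells, had one 1059 bp upstream at chr11:87754922-87755805, at 55.8 in KO, 27.7 in KI and 37.2 in WT. Mir210, the main hypoxia-induced microRNA, overlapped a region at chr7:141221487-141222389 that stood at 86.7 in KO, 95 in KI and 94.1 in WT. Mir22 had a region 1724 bp upstream at 84.4 in KO, 94.6 in KI and 83.7 in WT. The regions of Mir210 and Mir22 were in the top 25% of each list. Mir132 and Mir212, which are processed from a single transcript, lay inside the same region, at 44.1 in KO, 42.7 in KI and 61.5 in WT. Mirlet7i lay inside a region at 37.9 in KO, 81.4 in KI and 61.8 in WT, and Mirlet7e had a weak one 1880 bp upstream at 45.4 in KO, 18.7 in KI and 15.5 in WT. Mir148a had a region 565 bp upstream at 68.8 in KO, 83.5 in KI and 51.8 in WT.

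Common distal regions were weaker and narrower than the regions shared at gene ends. The median percentile of their best peaks was 54.5 in KO, 67.1 in KI and 49.7 in WT, against 74.6 in KO, 83.5 in KI and 72.4 in WT for the common gene-end regions. The KI list is longer than the others, so percentiles are read within a list and not between lists. The median width of the best peak was 519 bp in KO, 576 bp in KI and 566 bp in WT, against 715 bp in KO, 853 bp in KI and 766 bp in WT at gene ends. Merged common distal regions had a median width of 717 bp, with 5% below 450 bp and 5% above 1437 bp, against a median of 1005 bp at gene ends. Of the distal ones, 586 (12.3%, 11.4 to 13.2) were in the top 25% of all 3 lists, against 2827 (37.6%, 36.5 to 38.7) at gene ends. Only 57 (1.19%) were in the lowest 25% of all 3 lists. In 4558 regions (95.6%) each list had a single peak, and in 60 regions no base was covered by the best peaks of all 3 lists at once.

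**Figure D1:**
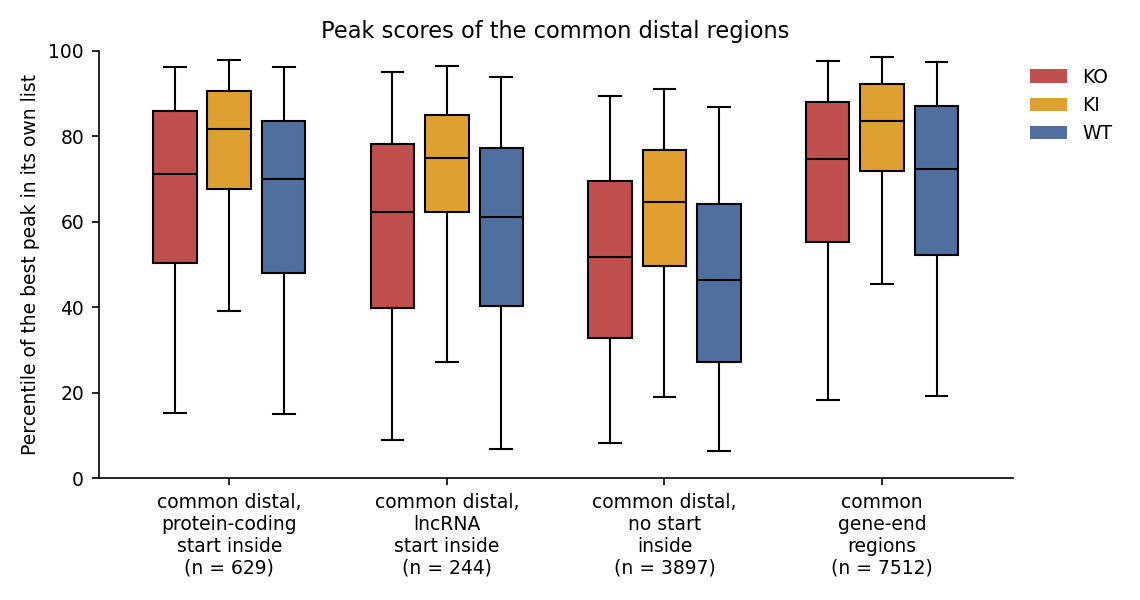
Percentile of the best peak within its own list, for common distal regions by the annotated start they contain and for common gene-end regions, in KO, KI and WT. Boxes span the middle 50% with the median as a line, and whiskers run to the 5th and 95th percentile of the regions. The 629 regions with a protein-coding start have medians of 71.2 in KO, 81.8 in KI and 70.0 in WT, and the 3897 without a start have 51.6 in KO, 64.7 in KI and 46.4 in WT.

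Regions with an annotated start scored higher than those without. Those with a protein-coding start had medians of 71.2 in KO, 81.8 in KI and 70.0 in WT, close to those of the gene-end regions. Those with a lncRNA start had 62.2 in KO, 75 in KI and 61.2 in WT. Those with no start had 51.6 in KO, 64.7 in KI and 46.4 in WT. The order of these 3 classes was the same in each list.

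Within each list, strong distal peaks were nearly always common. Of the distal peaks in the top 25% of a list by score, 97.1% in KO (96.0 to 98), 93.0% in KI (91.7 to 94.1) and 98.6% in WT (97.6 to 99.2) lay in common distal regions. In the lowest 25% the shares were 23.1% in KO, 6.05% in KI and 33.0% in WT. Over all scores they were 47.6% in KO, 28.0% in KI and 57.2% in WT. The rule used presence in every list, so these shares describe the selection and carry no further weight.

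In position, 2602 common distal regions (54.5%, 53.1 to 56.0) overlapped the body of a protein-coding gene, against 51.3% (50.6 to 52.1) of the other distal regions. Their median distance to the nearest gene end was 18798 bp, against 20942 bp for the other distal regions, and the middle 50% lay between 6462 bp and 51611 bp. There were 958 (20.1%) within 5 kb, 2581 (54.1%) at 5 to 50 kb, 986 (20.7%) at 50 to 200 kb and 245 (5.14%) beyond 200 kb. The share with an annotated start was 35.3% within 5 kb, 16.7% at 5 to 50 kb, 9.33% at 50 to 200 kb and 5.31% beyond 200 kb. Without the regions that hold a start, 49.3% (47.8 to 50.9) lay in a gene body and the median distance was 21979 bp, so the excess in gene bodies and the shorter distance were not seen among the regions without a start when these were set against all other distal regions. The score hardly changed with distance, with KO medians between 52.9 and 58.6, KI medians between 65.2 and 70.2 and WT medians between 48.2 and 54.1 over the 4 distance classes.

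**Figure D2:**
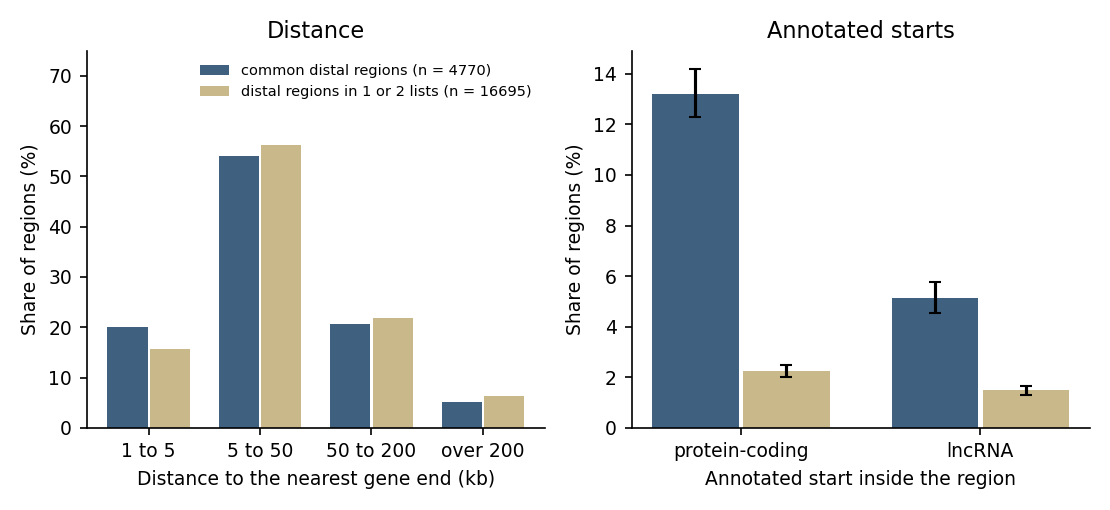
Left, share of regions in 4 classes of distance to the nearest protein-coding gene end, for the 4770 common distal regions and the 16695 distal regions of 1 or 2 lists. Right, share that contains an annotated start, with Wilson 95% intervals as error bars. The 1 to 5 kb class holds 20.1% against 15.7%, while protein-coding starts are in 13.2% against 2.23% and lncRNA starts in 5.12% against 1.48%.

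The 3 regions just inside the 1 kb border lay 1003 bp from an end of Fbxo7, 1005 bp from Maged2 and 1007 bp from Ebf2. The 3 common regions just outside the selection lay 998 bp from Ier2, Msantd2 and Uaca. Percentiles on the 2 sides overlapped. The Maged2 region stood at 57.7 in KO, 78.6 in KI and 35.1 in WT, and the excluded Ier2 region at 38.7 in KO, 46.0 in KI and 24.8 in WT.

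A gene was counted as having a common distal region when one overlapped its body or lay within 50 kb of it. No link between a region and a gene was measured, and neighbouring genes share regions. Of 21883 protein-coding genes, 6569 (30.0%) had at least 1 and 478 (2.18%) had 3 or more. Among 96 genes of 3 lists of HSC transcription factors and HSC surface receptors and markers, 62 (64.6%) had at least 1 and 10 (10.4%) had 3 or more. The median was 1 per gene against 0 over all genes. A few of the 96 encode other kinds of protein, such as the secreted Vwf and Angpt1. The 96 genes are longer than average, with a median length of 47.6 kb against 17.2 kb, and a longer gene has more room for a region. With all genes split into 4 equal classes of length, in the shortest class, up to 5.67 kb, 10 of 15 HSC genes (66.7%) had a region against 17.5% of all genes. The shares were 57.1% against 29.5%, 66.7% against 31.8% and 65.3% against 41.3% in the next 3 classes, in order of length. A common open region at a gene end was present for 56.2% of the HSC genes and for 39.5% of all genes. Among genes with such an end, 68.5% of the HSC genes and 35.8% of all genes had a common distal region, and among genes without one 59.5% and 26.3% had one.

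Most regions at these genes were not among the strongest. The 102 common distal regions near a gene of the 3 HSC lists had median percentiles of 48.5 in KO, 66.9 in KI and 46.6 in WT, against 54.5 in KO, 67.1 in KI and 49.7 in WT over all 4770. Of the 102, 5 (4.9%) were in the top 25% of all 3 lists, against 12.3% of all common distal regions. Counting a region once for each gene it lies near, there were 425 pairs of an HSC gene and a distal region of any kind, and in 109 (25.6%) the region was common, near the 23.1% of pairs over all genes. The number of distal regions of any kind per gene was 4.43 for the HSC genes and 1.8 for all genes.

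**Figure D3:**
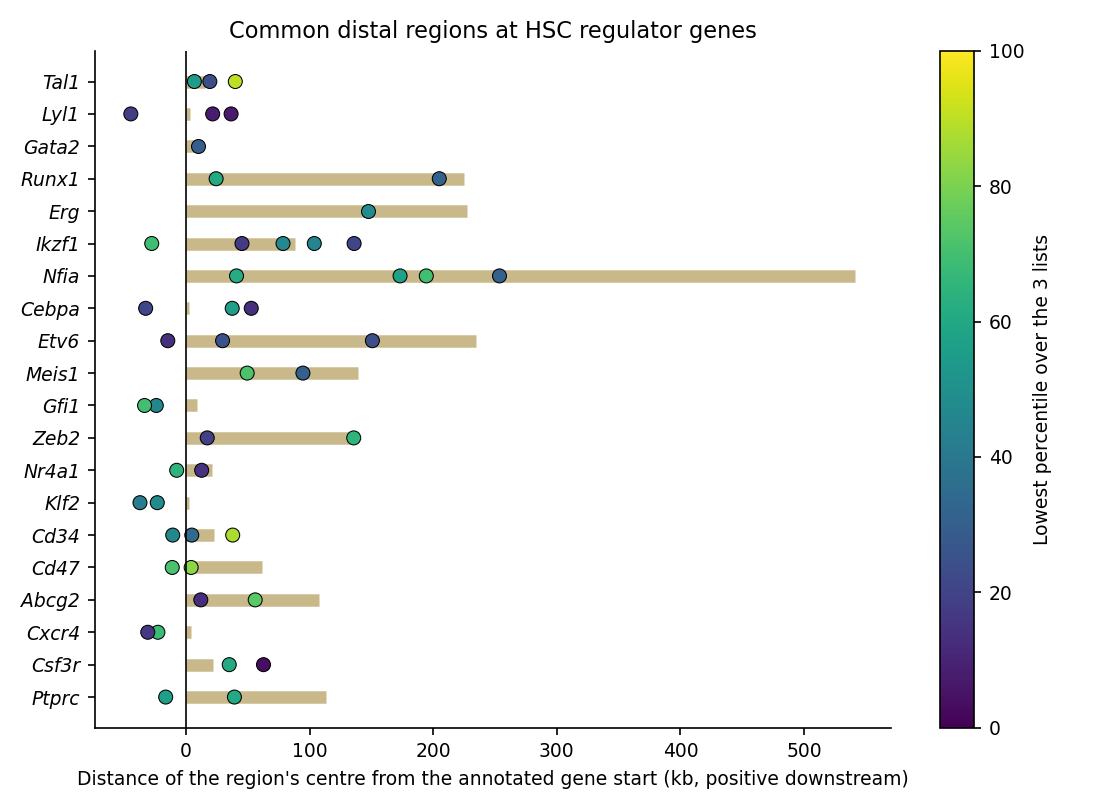
Position of common distal regions at HSC transcription factor and surface genes, as the distance in kb of a region's centre from the annotated gene start, positive in the direction of transcription. Bars show the annotated gene, and points are coloured by the lowest percentile of the region over the KO, KI and WT lists. Genes without a strand in the promoter table are not drawn, nor are Nfix and Pdzk1ip1, which share their regions with Lyl1 and Tal1. Tal1 and Cd34 each have a high-scoring region past the gene's end, 39.9 kb and 37.8 kb from the start.

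Of the 7 factors that act together in blood stem cells, 6 had a common distal region, and Fli1, an ETS factor, had 11 distal regions of which none was common. Tal1, a helix-loop-helix factor needed for all blood lineages, had 3. They were centred 6.8 kb, 19.3 kb and 39.9 kb downstream of its start. The farthest, chr4:115095529-115097065, lay 1.64 kb from Pdzk1ip1 and stood at percentile 92.8 in KO, 90.2 in KI and 91.6 in WT. The middle one, chr4:115075464-115075972, was weak in every list, at 23.1 in KO, 33.2 in KI and 29.9 in WT. Enhancers downstream of Tal1 that act in stem cells and in erythroid cells are well known in mouse, and whether these regions are those elements was not tested.

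Gata2, a zinc-finger factor that maintains HSC, had 1 of 7 distal regions in common, inside the gene 9.4 kb from the start (chr6:88202886-88203665). It stood at 41.7 in KO, 55.2 in KI and 29.4 in WT. Runx1, the factor that starts the HSC programme from endothelium, had 2 inside its long gene, 24.4 kb and 204.9 kb from the start. The nearer one, chr16:92801346-92802043, stood at 60.2 in KO, 73.8 in KI and 69.4 in WT, and the farther one at 49.3 in KO, 82.2 in KI and 31.5 in WT. Intragenic enhancers of Gata2 and Runx1 that act in HSC are textbook examples, and identity with them was not tested here. Erg, an ETS factor that HSC need for self-renewal, had 1 region 146.9 kb into the gene, at 65.9 in KO, 47.3 in KI and 52.9 in WT.

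Lmo2, the adaptor that joins Tal1 to GATA factors, had 1 region 12.4 kb outside the low-coordinate end of the gene (chr2:103944817-103946255), at 45.9 in KO, 46.3 in KI and 35.1 in WT. Lyl1, a close relative of Tal1, had 3 regions, 44.6 kb upstream and 21.6 kb and 36.5 kb downstream of its start, and the last 2 lie inside the neighbouring gene Nfix. All 3 stood low in at least 1 list. The region at 36.5 kb stood at 7.34 in KO, 56.3 in KI and 54.4 in WT, and that at 21.6 kb at 22.1 in KO, 46.9 in KI and 7.89 in WT. Of the 11 regions at the 6 genes, the farthest one of Tal1 had the highest percentile in each list. The lowest was at Lyl1 in KO and WT and was the middle one of Tal1 in KI.

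Among 53 genes listed as other HSC transcription factors, 31 (58.5%) had a common distal region and 5 had 3 or more. The list is not strictly one of transcription factors, since it also holds genes for RNA-binding proteins such as Zfp36l2. Ikzf1, the lymphoid regulator Ikaros, had the most, with 5 of 10 distal regions in common. Its region 27.7 kb upstream, chr11:11656766-11657702, stood at 69.4 in KO, 81.8 in KI and 80.3 in WT, the highest of the 5 in KO and WT. In KI the region 103.8 kb downstream, chr11:11788458-11789036, was slightly higher, at 46.2 in KO, 82.5 in KI and 45.7 in WT. Nfia, a nuclear factor I protein involved in the choice between erythroid and granulocytic fate, had 4 of 18, all within the gene between 40.9 kb and 253.6 kb from the start. The region at 194.4 kb stood at 82.3 in KO, 76.6 in KI and 69.7 in WT.

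Cebpa, the master regulator of myeloid commitment, had 3. The region 37.4 kb downstream, chr7:35156279-35157132, also holds the start of the lncRNA Gm35889, and stood at 64.7 in KO, 88.5 in KI and 56.0 in WT. A downstream Cebpa enhancer that drives myeloid priming in mouse is known, and identity was not tested. The other 2 lay 32.6 kb upstream, at 57.5 in KO, 56.8 in KI and 21.1 in WT, and 52.8 kb downstream, at 33.1 in KO, 49.9 in KI and 13.3 in WT. Etv6, an ETS repressor that adult HSC need to persist, had 3 of 10 distal regions in common, at 14.7 kb upstream and at 29.6 kb and 150.8 kb within the gene. Nfix, which supports HSC after transplantation, had the same 3 regions as Lyl1.

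Ets1, an ETS factor, had 2 regions, both in its body. The region chr9:32695587-32696589 stood at 87.0 in KO, 94.1 in KI and 89.9 in WT, and chr9:32671987-32673035 at 73.0 in KO, 79.0 in KI and 78.2 in WT. Meis1, a homeodomain partner of Hox proteins in stem cells, had one 49.5 kb into the gene at 71.8 in KO, 85.0 in KI and 83.9 in WT. Its other region, 94.6 kb into the gene, stood at 29.8 in KO, 76.1 in KI and 77.1 in WT. Gfi1, a repressor that restrains HSC cycling, had both of its regions 24.0 kb and 33.5 kb upstream, inside Evi5. The one farther away stood at 71.3 in KO, 86.0 in KI and 69.9 in WT. Zeb2, Zfp36l2, Nr4a1 and Klf2 had 2 each. The region 7.5 kb upstream of Nr4a1 stood at 79.3 in KO, 89.1 in KI and 64.6 in WT, and Klf2 had its 2 regions 37.2 kb and 23.2 kb upstream, where percentiles lay between 42.0 and 65.0.

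Among 36 HSC surface receptors and markers, 25 (69.4%) had a common distal region. Esam, an endothelial adhesion molecule also used to isolate HSC, had the most, 4 of 5 distal regions. The Esam region at chr9:37529816-37530778, inside the gene, stood at 65.1 in KO, 76.2 in KI and 46.2 in WT. The one at chr9:37517215-37517967 stood at 68.2 in KO, 78.8 in KI and 6.98 in WT, low in the WT list only. Those at chr9:37554169-37554775 and chr9:37567381-37568499 were nearest to Nrgn. The former stood at 42.9 in KO, 45.5 in KI and 24.5 in WT, and the latter at 3.66 in KO, 15.7 in KI and 40.4 in WT. Cd34, the sialomucin that marks progenitors, had 3 of 4 in common. Its region 37.8 kb downstream of the start, chr1:194975953-194977250, holds the start of the lncRNA Gm16897 and stood at 89.1 in KO, 94.0 in KI and 87.8 in WT. The one 4.7 kb into the gene stood at 34.1 in KO, 61.7 in KI and 59.8 in WT.

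Cxcr4, the receptor that keeps HSC in the marrow, had 2 upstream regions. The region 22.7 kb upstream stood at 68.3 in KO, 91.4 in KI and 77.2 in WT, and that 30.9 kb upstream at 29.1 in KO, 24.9 in KI and 16.4 in WT. Ptprc, which encodes the pan-leukocyte phosphatase CD45, had one 16.4 kb upstream at 55.7 in KO, 75.6 in KI and 81.2 in WT. Its other region, 39.2 kb into the gene, stood at 82.8 in KO, 77.3 in KI and 60.5 in WT. Cd47 had a second region 11.1 kb upstream at 71.3 in KO, 82.4 in KI and 76.7 in WT. Csf3r, the receptor for the granulocyte growth factor, had its 2 regions beyond its end, inside Oscp1, and 1 of them holds a start of Oscp1.

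**Figure D4:**
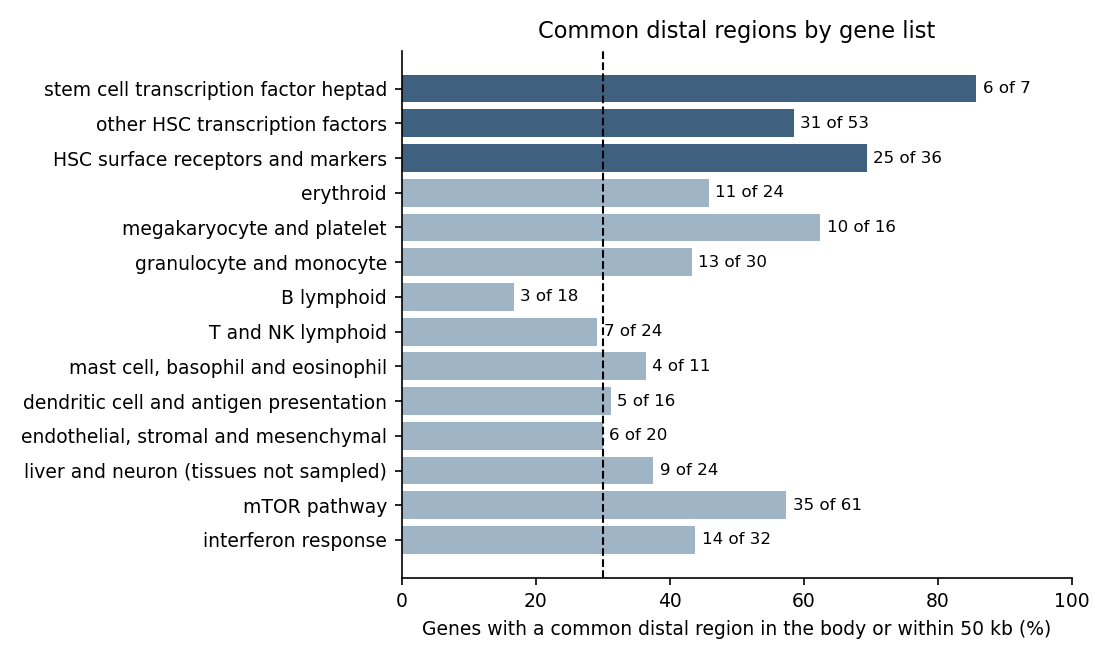
Share of genes in 14 lists with a common distal region in the body or within 50 kb, with the number of genes beside each bar and the 30.0% of all protein-coding genes as a dashed line. The 3 HSC lists are dark. Shares run between 85.7% (6 of 7) for the stem cell heptad and 16.7% (3 of 18) for B lymphoid genes.

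Among lists of mature blood lineages, B lymphoid and T and NK lymphoid genes were below the 30.0% of all genes, and the others were above it. The share was 62.5% (10 of 16) for megakaryocyte and platelet genes, near the 64.6% of the 3 HSC lists together. For erythroid genes the share was 45.8% (11 of 24), and for granulocyte and monocyte genes 43.3% (13 of 30). It was 29.2% (7 of 24) for T and NK lymphoid genes, 31.2% (5 of 16) for dendritic cell genes and 16.7% (3 of 18) for B lymphoid genes. For mast cell, basophil and eosinophil genes, which form 1 list, it was 36.4% (4 of 11). Genes of endothelial and stromal cells had 30.0% (6 of 20) and genes of liver and neuron, tissues that were not sampled, 37.5% (9 of 24). Interferon response genes, of interest because of the poly(I:C), had 43.8% (14 of 32). The lists differ in gene length, with medians between 7.83 kb and 50.1 kb, and small lists are imprecise. Several HSC genes are also expressed in platelets or endothelium, and Gata2 and Flt3 are in 2 lists each, so the lists are not independent.

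The B lymphoid genes with a region were Pax5, Vpreb1 and Igll1, and the last 2, which encode the surrogate light chain, share one at 53.6 in KO, 60.9 in KI and 56.9 in WT. The genes of the mast cell, basophil and eosinophil list with a region were Prss34, Hdc, Siglecf and Gata2. Those of the dendritic cell list were Flt3, Clec9a, Siglech, Zbtb46 and Batf3. Zbtb46, a factor of classical dendritic cells, had 3, the best of which stood at 89.2 in KO, 92.8 in KI and 81.1 in WT. Of the platelet genes, Pf4 and Ppbp, chemokines of the alpha granule, shared a region that stood at 85.1 in KO, 86.8 in KI and 80.2 in WT. Selp, the adhesion receptor P-selectin, had one in its body at 85.2 in KO, 76.6 in KI and 87.8 in WT. The genes named in this paragraph were chosen after their values were seen.

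Mtor itself had 1 common distal region, inside the gene 61.1 kb from the start (chr4:148509425-148509946). It stood at percentile 52.5 in KO, 40.0 in KI and 41.4 in WT. The region was thus present in KO although the KO list lacked a peak at the start, and which exons the floxed allele loses is not stated in the labels. Of 61 mTOR pathway genes, 35 (57.4%) had a common distal region, against 30.0% of all protein-coding genes. The 50 regions had median percentiles of 52.4 in KO, 67.4 in KI and 49.5 in WT. The pathway genes had a median length of 39.2 kb against 17.2 kb for all genes, and their share was not split by length. Of the pairs of a pathway gene and a distal region of any kind, 28.2% had a common region, against 23.1% over all genes. Many of the pathway genes also had an open end, 80.3% against 39.5% of all genes. Among the genes with one, 59.2% of the pathway had a common distal region against 35.8% of all genes.

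By role, 5 of 11 genes for subunits and assembly factors of the mTOR complexes had a region, Mtor, Rptor, Deptor, Mapkap1 and Prr5l. The counts by role stand against 30.0% of all protein-coding genes, and the groups are small. Of 5 genes of the TSC branch, which restrains Rheb, 2 had one, Tbc1d7 and Ddit4. Of 20 genes of amino acid sensing 12 had one, of 9 genes for PI3K and AKT signalling 6 had one, and of 16 genes grouped as targets 10 had one. The group of targets is broad and includes Mknk1, Mknk2, Creb1 and Crem, so it is not a list of mTOR substrates. Ddit4, a stress-induced inhibitor of mTORC1, had the most, 4 of 8 distal regions, and all 4 were weak or moderate. The one 8.0 kb downstream of its start stood at 45.3 in KO, 44.4 in KI and 27.3 in WT, and the one 29.4 kb upstream at 52.3 in KO, 7.22 in KI and 42.2 in WT. Pik3r1, the regulatory subunit of PI3K, had 3. The Pik3r1 region 109.0 kb from its start stood at 50.4 in KO, 78.7 in KI and 50.8 in WT. Tbc1d7, a subunit of the TSC complex, had 3, and 1 of them stood at 43.5 in KO, 34.8 in KI and 1.3 in WT. Akt2, a kinase downstream of PI3K, had one 97.8 kb downstream of its start at 85.9 in KO, 93.0 in KI and 84.2 in WT, which lies in Zfp607b.

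Most common distal regions stood alone. The median gap to the next region on a chromosome was 215 kb. Neighbours were chained when little lay between them (the widest gap joined was 12492 bp and the narrowest left apart 12605 bp), and 4181 (87.7%) then had no partner and 257 pairs were formed. Clusters of 3 or more numbered 21 and held 75 regions (1.57%). The largest, chr6:47739465-47772569, held 6 regions over 33.1 kb between Gm40363 and Pdia4, a disulfide isomerase of the endoplasmic reticulum. Its 6 regions stood between 69.1 and 87.0 in KO, between 77.5 and 94.6 in KI and between 47.0 and 95.6 in WT, and none contained an annotated start. The strongest of them, chr6:47771837-47772569, stood at 87.0 in KO, 94.6 in KI and 95.6 in WT. The second, chr12:54709857-54739087, held 5 regions over 29.2 kb between Eapp and Snx6 and was weaker, between 37.0 and 64.4 in KO, between 4.21 and 58.3 in KI and between 16.4 and 67.4 in WT.

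There were 7 clusters of 4. The one in Bcl3, an atypical inhibitor of NF-kappaB that acts in the nucleus, spanned 15.5 kb with percentiles between 41.8 and 79.4 in KO, between 63.0 and 78.3 in KI and between 55.5 and 69.8 in WT. The one in Tex14 spanned 29.1 kb, between 21.1 and 84.3 in KO, between 78.7 and 89.5 in KI and between 62.3 and 89.2 in WT. The cluster of Cirbp and Midn on chromosome 10 held starts of Atp5d, Cirbp and Midn in 3 of its 4 regions, so it is mostly a row of internal starts. The others of that size lay between Mreg and Pecr, between Gm40011 and Rbm38, at Acod1 and in Plec. The tenth cluster, with 3 regions over 18.8 kb, lay between Echdc3 and Usp6nl. None of the 96 HSC genes gave its name to a cluster.

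By the nearest gene end, the 4770 regions were assigned to 3514 genes, and 2646 of these had 1. Pde4d, a cAMP phosphodiesterase, and Zfhx3, a large homeodomain factor, had 8 each. Atp10a, Itpr1, Slc8a1 and Wwox had 7 each, and Abcc4, Adgrl2, Cyria and Mef2c had 6 each. Most of the 10 are long genes. The longest, Pde4d, spans 1300 kb and held 7 of its 8 regions in the body, while Cyria spans 119 kb with 2 of 6 in the body. Mef2c, a MADS-box factor that guides lymphoid and myeloid fate, had median percentiles of 65.7 in KO, 70.6 in KI and 55.9 in WT. Itpr1, a calcium release channel, had 58.1 in KO, 78.5 in KI and 64.4 in WT.

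To set the libraries side by side without comparing scores, the 4770 regions were ranked by score within each list, with 100 as the highest. Spearman's rho over the 4770 regions was 0.577 for KO and WT, 0.643 for KI and WT and 0.653 for KO and KI. Over the 7512 common gene-end regions it was 0.786, 0.833 and 0.823. The regions share cut preference and sequence content between libraries, the pairs share lists, and the values describe these libraries only. The median absolute rank difference was 15.6 for KO and WT and 14.1 for KI and WT. It exceeded 50 in 340 regions (7.13%) for KO and WT, in 265 (5.56%) for KI and WT and in 229 (4.8%) for KO and KI. A rank is relative to the other regions, and a rank difference is no measure of a change in accessibility.

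**Figure D5:**
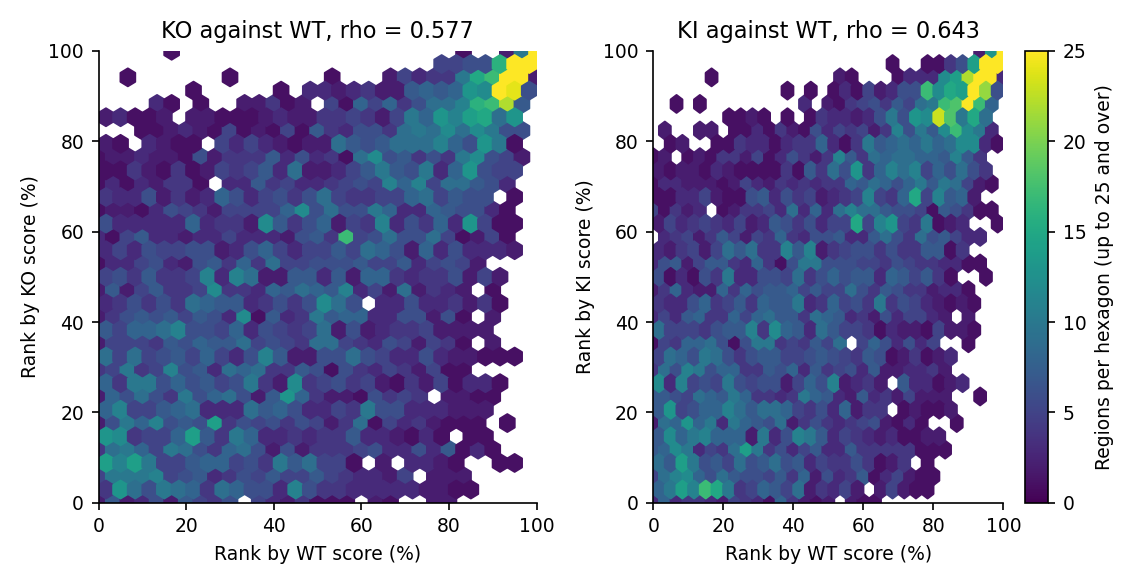
Rank of the 4770 common distal regions by score, in percent of the regions, in KO (left) and KI (right) on the vertical axis against WT on the horizontal axis. Colour gives the number of regions per hexagon. Ranks agree best in the upper corner and scatter widely below it, with a Spearman's rho of 0.577 for KO and 0.643 for KI.

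The regions with the widest rank differences were single cases at many kinds of gene. For KO, the region at Zmat1, chrX:135086710-135087604, ranked 8.44 in KO and 96.6 in WT, with KI between them at 62.9. Those nearest to Fyttd1 (1.81 in KO, 84.6 in WT), Vldlr (4.95 in KO, 85.0 in WT) and Zfpm2 (0.0629 in KO, 78.7 in WT) were also among the 5 widest. In each of these 4 the KI rank lay between the others. In the other direction, the region 3414 bp from the chemokine gene Ccl7, chr11:82041545-82042298, ranked 93.2 in KO and 5.65 in WT, with KI at 32.6. It was followed by regions at Alkbh8 (98.8 in KO, 16.1 in WT), Car8 (84.9 in KO, 2.64 in WT), Gfod1 (83.6 in KO, 1.49 in WT) and Spdya (85.8 in KO, 3.72 in WT).

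For KI, the regions with the lowest ranks relative to WT lay in Dlgap2 (1.8 in KI, 78.4 in WT), Stx18 (5.12 in KI, 79.7 in WT) and Chn2 (2.11 in KI, 76.4 in WT), in Cbr3 (4.09 in KI, 76.6 in WT) and 57749 bp from Cpsf6 (10.4 in KI, 82.5 in WT). Those with the highest lay in Fam13b (87.9 in KI, 5.95 in WT), at an internal start of the acetyltransferase gene Kat5 (82.1 in KI, 2.29 in WT), near Alkbh8 (95.7 in KI, 16.1 in WT), Enpp1 (81.4 in KI, 2.95 in WT) and Kif2a (77.5 in KI, 0.964 in WT). The Alkbh8 region, chr9:3022822-3026993, was the only one among the 5 highest for both mutants, which are set against the same WT list. It lies 308 kb from Alkbh8, close to chr9:2999955-3005028, which is among the 10 highest-scoring regions described below. What sequence this stretch of chromosome 9 holds was not examined, so no shared change in the mutants can be read from it. None of the genes nearest to the regions of these comparisons was in the HSC lists.

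The highest-scoring common distal regions stood apart from the rest. By the lowest of their 3 percentiles, the first 10 were nearest to Col19a1, Lrrc4c, Galc, Myo3a, Rpusd4, Rab10, G6pd2, Chl1, Asmt and Alkbh8, at distances between 23442 bp and 1765522 bp. The region near Col19a1, chr1:24611364-24616263, was 4900 bp wide and scored 3100 in KO, 3100 in KI and 3100 in WT. The region nearest to Galc had exactly the same score in each list. That value was the highest in the KO and KI lists, while WT reached 3212.09. It may be a limit of the score, which was not tested, so equal values of 3100 do not order these regions. The best common gene-end region reached 839.95 in KO, 1305.41 in KI and 891.88 in WT, below the first of these regions in its own list. What sequence these regions hold was not examined, because no genome sequence was used here. No filter for repeats or artefact-prone sites was applied to the peak lists here, and whether such high scores reflect open chromatin was not tested. By the same measure, the first common distal region with an annotated start was at an internal start of Cetn3, which encodes a centrin, and scored 591.59 in KO, 709.2 in KI and 522.52 in WT. At the other end, by the highest of their 3 percentiles, the last 3 lay at Fosb (percentile 3.37 in KO, 2.0 in KI and 6.07 in WT), 1700012B09Rik and Gm6569.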

How the data were processed

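The deposited files were 3 peak lists, 1 per ATAC-seq library, each with a score per peak. The files have no header. From the peak names, which are those MACS writes, the score the authors deposited was read as 10 times the negative log10 of a p-value and no peak scored below 50. CASAVA and the build mm10 are named in the submitters' processing notes. How reads were aligned, shifted, filtered and freed of duplicates is not given in the sources used here, and read depth is unknown. There is one file per library, and whether a library or a peak call pooled animals is not given in the sources used here. A deeper or cleaner library gives more weak peaks at the same threshold, which can make a region common or not common.

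Peaks of the 19 autosomes and of X and Y were joined at a gap of 0 bp (Python 3.11.15, pandas 2.3.3, SciPy 1.17.1). The code was checked on simulated data with known answers and, on the peak lists themselves, against bedtools 2.31.1. Gene positions came from RefSeq (GRCm38.p6) with 21883 protein-coding genes, and strands and starts from its promoter table. Percentiles were taken within a list, and ranks over the 4770 regions. Shares carry Wilson 95% intervals. The 14 gene lists held 373 genes, 3 of which were not protein-coding in the table. The regions and the lists were chosen with earlier results of these data known. Genes were named by rule: the 7 heptad factors, up to 12 other HSC factors and 8 surface genes with most common distal regions, up to 4 mTOR pathway genes and Mtor, the 10 highest and 3 lowest regions, the 10 largest clusters, the 10 genes with most nearest regions, the 5 widest rank differences in each direction and the 3 regions on each side of the 1 kb border. Of the regions this rule names, 1 is not reported here. Genes named beside this rule for their role in a list, and the microRNAs and starts shown, were chosen after their values were seen. Alternatives changed the window, the score threshold, the list size, the joining, the distance to genes and the lists used. No test was run, since each genotype had 1 library.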

Additional observations from a re-analysis of the deposited data

How the results depend on the processing

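The number of common distal regions stayed within 1.5 times of 4770 with a window of 500 bp or 2500 bp, with lists of equal size (3979), with joining at a gap of 200 bp (4784), with at least 1 bp covered by all 3 lists (4743) and with ends of every gene class (4057). It was 3124 with a window of 10 kb and 1421 with peaks scoring at least 100. With only those peaks, 58.9% lay in a gene body, the median distance was 15600 bp, 4 clusters remained, 2527 genes and 23 of the 96 HSC genes had a region, and 15.1% were in the top 25% of all 3 lists. With a window of 2500 bp these shares and distances were 52.5% in a gene body, 22600 bp and 11.4%. Clusters numbered 3 with a chaining gap of 5 kb and 75 with 25 kb, so their number follows the gap. Within 10 kb, 3084 genes (14.1%) and 38 HSC genes (39.6%) had a region. By the nearest gene only, meaning the nearest gene body within 50 kb, 3147 genes had one. The 3514 genes given above were instead assigned by the nearest gene end, without a limit of distance. Within 100 kb the shares were 44% of all genes and 75% of the HSC genes. The share of HSC genes was computed with the window of 2500 bp, with peaks scoring at least 100, with lists of equal size, within 10 kb, within 100 kb and by the nearest gene only, and in these it was above that of all genes (24% against 11.5% with peaks scoring at least 100). As additions chosen after the data were seen, each list was left out in turn. Without the WT list there were 7499 regions, with a median distance of 20000 bp and 79 clusters, and without the KO list 56 clusters. Without the KI list, the one that differs in its label, there were 5150 regions, and 68 of the 96 HSC genes had one. Motif shares of the regions in windows of 300 or 200 bases were not run, since no genome sequence was used here. No paired analysis was possible because each genotype had 1 library and no result comes from a test. The limits are those of peak lists: a region missing from a list may be below its threshold or not analysed here, and neither depth nor replicate error is known.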

Other observations

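Common distal regions were present on every chromosome. Their share of all distal regions ran between 19.0% on chromosome 15 and 25.4% on chromosome 7, near the 22.2% of the whole set. Per 100 protein-coding genes, chromosome 18 had the most (31.8), and the sex chromosomes had the fewest, with 11.7 on X and 1.95 on Y. The farthest region from any gene end, 2137444 bp from Cntnap5b, stood at percentile 72.5 in KO, 66.2 in KI and 34.4 in WT. The next, 2102363 bp from the protocadherin gene Pcdh9, stood at 83.2 in KO, 83.3 in KI and 86.8 in WT.

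Interferon response genes with a common distal region included Irf2, a repressor of interferon-driven genes that protects HSC from exhaustion, with 4. The best of them stood at 72.4 in KO, 65.8 in KI and 61.5 in WT. Ifnar1 and Ifnar2, the subunits of the receptor for type I interferon, had regions at 70.4 in KO, 82.7 in KI and 87.6 in WT and at 78.1 in KO, 70.0 in KI and 59.3 in WT. Adar, an RNA editing enzyme, had one over an internal start at 40.2 in KO, 65.8 in KI and 24.2 in WT. These genes were chosen after their values were seen, and all 3 groups had received poly(I:C), so no untreated library was at hand for comparison.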
